A study of Mus musculus with 30 samples.

Results

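The 9 genes described here act in lipid droplets and in the handling of fatty acids: *Plin2*, *Plin3*, *Fabp3*, *Fabp5*, *Lpcat1*, *Dgat1*, *Dgat2*, *Cd36* and *Pnpla2*. They were chosen by name, with levels by genotype and stage in these same embryos already known, from 55487 genes counted. No cut-off on their values is recorded, so their differences between groups are given as a description and support nothing on their own. In *Dis3* null embryos, 6 of the 9 had fewer transcripts than in het embryos when the stages were merged: *Plin2* was 8.51-fold lower, *Fabp3* 9.72-fold, *Lpcat1* 4.99-fold, *Dgat2* 3.14-fold, *Fabp5* 3.11-fold and *Plin3* 2.81-fold; 2.06% of all genes tested were called lower there. Against wild-type embryos, *Fabp3*, *Lpcat1* and *Dgat2* were lower, where 1.59% of all genes were. None of these calls against wild-type embryos held under every fit tried. *Dgat1* and *Pnpla2* passed neither comparison, and *Cd36* was close to absent.

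Lipid droplets store neutral lipid, mostly triacylglycerol and sterol esters, behind a layer of phospholipid that is coated by proteins such as the perilipins. Fatty acids are taken up, carried in the cytosol by small binding proteins, joined to glycerol by acyltransferases, and set free again by lipases when the cell needs fuel or membrane. Mouse oocytes and pre-implantation embryos contain lipid droplets and can oxidize fatty acids as fuel.

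The data are RNA-seq counts of 23 single mouse embryos. All came from *Dis3*+/- females, stimulated with PMSG and hCG and mated to *Dis3*+/- males, so every mother carried the null allele, in which exons 3 to 5 of *Dis3* are deleted throughout the embryo. *Dis3* encodes a ribonuclease of the RNA exosome. At embryonic day 2.5 (E2.5) there were 6 wild-type (*Dis3*+/+), 2 het (*Dis3*+/-) and 4 null (*Dis3*-/-) embryos, and at E2.75 there were 3, 5 and 3. Each embryo was genotyped from its own residual genomic DNA, and each is a separate biological sample. The polyadenylated RNA was amplified by PCR without molecular identifiers, so counts are not counts of molecules. In whole embryos, fewer cells of a type and less RNA per cell cannot be told apart. The binding data are POU6F1-mCherry ChIP-seq peaks of 2 replicates in mouse embryonic stem cells derived from *Dis3* flox/flox blastocysts, taken 48 h after transfection.

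The libraries held 1690192 to 14015980 gene counts. *Dis3* itself was at 0 to 21.5 CPM (the count scaled to a normalised library of 1000000) in null embryos, 30.4 to 59.2 in het embryos and 18.0 to 147 in wild-type embryos; the library labelled E2.5 WT replicate 6, at 18.0, lay within the null range. The share of reads outside annotated exons was 32.3% to 43.9% in null libraries, above all het libraries, at 21.2% to 27.9%, and overlapping wild-type libraries, at 20.99% to 33.4%. The ERCC spike-in share was 3.26% to 7.03% in null, 2.06% to 4.64% in het and 2.53% to 7.44% in wild-type libraries. Their part in the differences below was not tested. Of the embryonic markers, *Pou5f1*, *Nanog* and the other 4 genes of the inner-cell list had counts in all groups. The oocyte list summed to 17.03 to 97.7 CPM in null, 10.2 to 64.1 in het and 8.58 to 76.2 in wild-type embryos. The list for cumulus cells, which surround the oocyte, summed to 20.7 to 68.8, 5.65 to 33.9 and 1.47 to 32.99 CPM in the same order, with *Inhba* and *Ptx3* at 0 in every embryo. Of its 9 markers, 6 had any counts in null, 2 in het and 5 in wild-type embryos. Only *Amhr2* had enough counts to be tested with the stages merged, and it was not called. The blood list stayed at or below 5.72 CPM, with *Hbb-bs* at 0.

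Promoters of 6 of the 9 genes were found in the RefSeq promoter table (GRCm38.p6), each from 250 bases before to 50 bases after the transcription start. *Fabp5*, *Dgat1* and *Dgat2* are named only. The 4 shown belong to the genes in which every null embryo was below every het embryo. Capitals mark matches, on either strand, to the POU octamer ATGCAAAT, the homeodomain core TAATTA, the nuclear receptor core AGGTCA, the E-box CACGTG, the box CCAAT, the GC box GGGCGG and the TATA-like TATAAA. *Plin2* lies at chr4:86670010-86670309, minus strand. *Plin3* lies at chr17:56290462-56290761, minus strand. *Fabp3* lies at chr4:130308488-130308787, plus strand. *Lpcat1* lies at chr13:73466981-73467280, plus strand.
Plin2: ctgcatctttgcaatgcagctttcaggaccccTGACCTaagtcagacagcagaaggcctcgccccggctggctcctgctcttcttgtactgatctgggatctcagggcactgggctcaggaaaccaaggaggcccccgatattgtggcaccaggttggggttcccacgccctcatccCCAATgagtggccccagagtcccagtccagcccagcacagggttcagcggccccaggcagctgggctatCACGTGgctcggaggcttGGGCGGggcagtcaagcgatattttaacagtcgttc
Plin3: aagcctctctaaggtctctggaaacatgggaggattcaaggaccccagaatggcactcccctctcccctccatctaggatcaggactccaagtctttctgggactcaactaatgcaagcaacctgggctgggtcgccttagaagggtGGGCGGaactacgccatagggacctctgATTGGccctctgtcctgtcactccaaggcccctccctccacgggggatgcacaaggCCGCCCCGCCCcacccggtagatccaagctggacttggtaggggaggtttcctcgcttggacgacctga
Fabp3: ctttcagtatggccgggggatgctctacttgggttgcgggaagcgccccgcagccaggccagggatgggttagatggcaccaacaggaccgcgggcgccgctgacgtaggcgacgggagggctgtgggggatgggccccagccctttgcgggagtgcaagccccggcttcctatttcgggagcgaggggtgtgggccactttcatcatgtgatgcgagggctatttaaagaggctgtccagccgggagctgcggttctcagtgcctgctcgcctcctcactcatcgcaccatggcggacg
Lpcat1: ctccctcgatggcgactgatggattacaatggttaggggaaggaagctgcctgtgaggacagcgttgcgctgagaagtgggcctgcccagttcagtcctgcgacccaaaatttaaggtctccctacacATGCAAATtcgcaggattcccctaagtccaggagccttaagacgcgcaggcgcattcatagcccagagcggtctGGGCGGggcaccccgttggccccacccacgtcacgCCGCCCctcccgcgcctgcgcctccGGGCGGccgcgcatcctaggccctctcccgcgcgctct

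The *Lpcat1* promoter held the octamer, the classical site of POU-family factors, 122 to 115 bases before the start; 1.74% of 32851 promoters of the same length held it. The *Plin2* promoter held CACGTG across its start, from 4 bases before it to base 2 of the transcript, a sequence in 7.15% of promoters, and AGGTCA on the opposite strand, in 16.3%. GGGCGG was in 5 of the 6 promoters found, all but that of *Fabp3*, and in 35.7% of all promoters; CCAAT was in those of *Plin2*, *Plin3* and *Cd36*, and in 37.4%. TAATTA, in 5.29%, and TATAAA, in 13.6%, were in none of the 6. The 4 promoters printed were 59.3% to 65.0% G and C, and the median over all promoters was 52.7%. These matches are letters in a window and not shown to be sites.

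A POU6F1 peak present in both replicates lay within 1 kb of a transcription start for 7 of the 9 genes, all except *Fabp3* and *Cd36*. Of the 13415 genes tested in the merged comparisons, 65.3% had such a peak. At *Plin2* the shared peak spanned chr4:86670001-86670295 and took in 286 of the 300 promoter bases printed above, with 10.5-fold enrichment in replicate 1 and 4.75-fold in replicate 2. At *Lpcat1* the shared peak, chr13:73467120-73467791, began 4 bases past the octamer and was enriched 14.5-fold and 4.80-fold. At *Plin3* the longer of 2 shared peaks, chr17:56289889-56290633, covered 172 of the promoter bases, at 7.40-fold and 5.03-fold. *Pnpla2*, whose transcripts passed no comparison, had a peak of 19.7-fold and 5.64-fold, and *Dgat1* one of 21.8-fold and 6.21-fold. Peaks were thus called at genes that were lower in null embryos and at genes that were not. *Fabp3* had 3 peaks in replicate 1, the highest of 11.4-fold, and none in replicate 2. With a −log10 q of at least 10 in both replicates none of the 9 kept a peak, against 29.0% of genes, and *Plin3* and *Pnpla2* alone had a peak in both lists of both replicates, against 23.8%. Peaks were called in stem cells that overproduce POU6F1, not in embryos.

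Levels between genes were compared in wild-type embryos as CPM per kb of exon. *Plin3* was highest, at 75.1 ± 28.5 CPM per kb (SD, n = 9), followed by *Fabp3* at 27.7 ± 44.1, *Dgat2* at 12.4 ± 5.49, *Lpcat1* at 11.8 ± 5.50, *Fabp5* at 7.29 ± 3.76, *Plin2* at 4.91 ± 3.71, *Dgat1* at 2.64 ± 2.55, *Pnpla2* at 1.74 ± 1.47 and *Cd36* at 0.0165 ± 0.0494. In this order only *Pnpla2* and *Cd36* were neighbours whose means lay farther apart than their SDs reach. The coat protein PLIN3 thus had the most transcripts per length of the 9, and *Plin2*, for the perilipin that is stable only on droplets, had fewer.

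**Figure D1:**
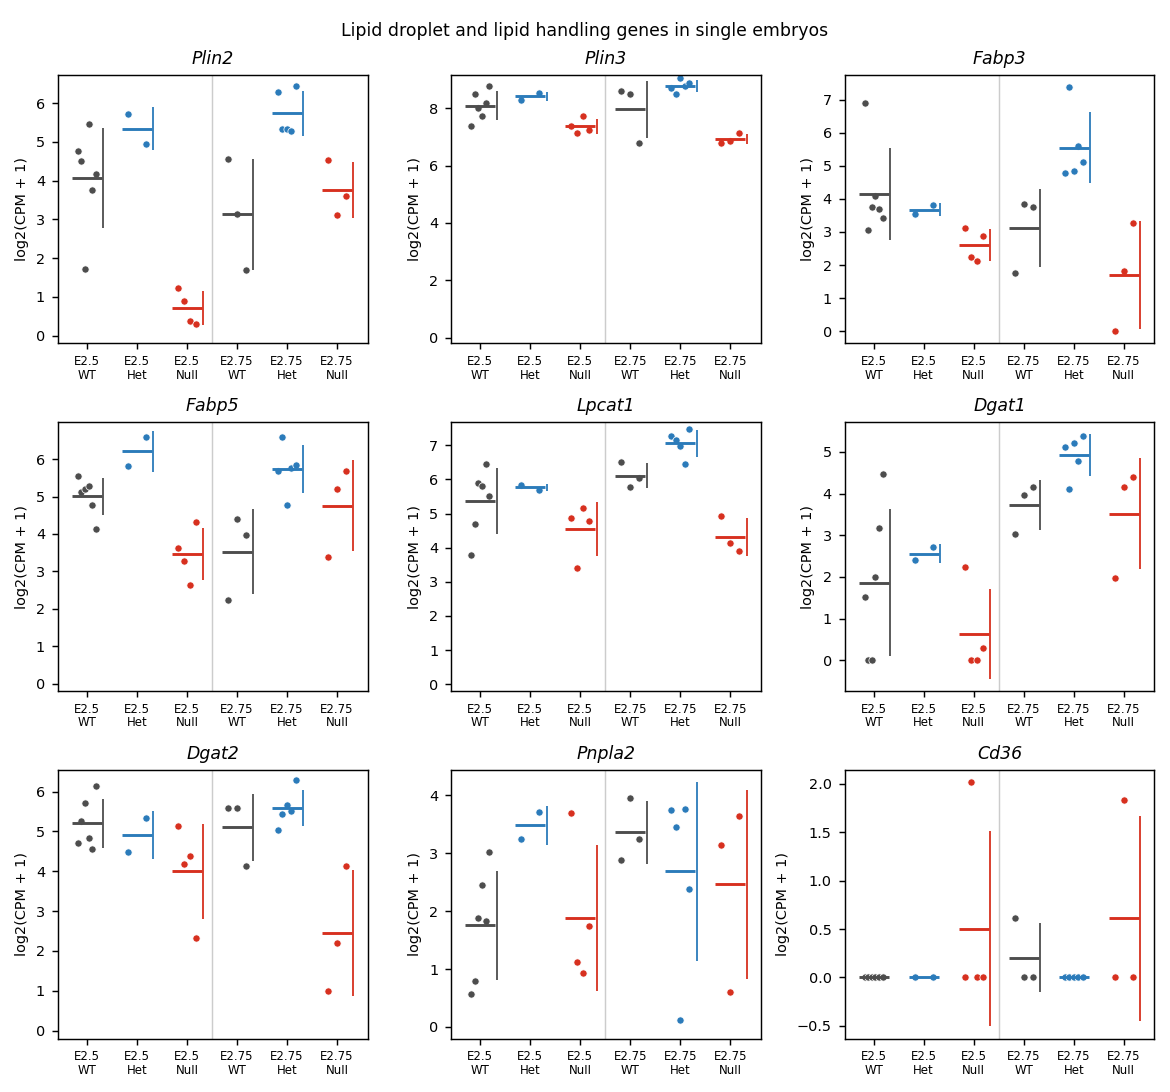
Levels of the 9 genes, as log2(CPM + 1), in each of the 23 embryos by stage and genotype; points are embryos, horizontal lines group means and vertical lines 1 SD. For *Plin2* the 4 E2.5 null embryos lie at 0.235 to 1.35 CPM, below all others, and *Cd36* is at 0 in all but 3 embryos.

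Differences between genotypes were fitted across all 13415 genes that had enough counts, and a gene was called when its adjusted p was below 0.1 and its log2 fold change exceeded 1 in size. Of the 9 genes, 8 entered the fit, and 6 were called lower in null than in het embryos, where 2.06% of all genes were called lower and 3.67% higher. All 8 had a negative log2 fold change, with a median of -1.77 against 0.02 over all genes. Every null embryo was below every het embryo for *Plin2*, *Plin3*, *Fabp3* and *Lpcat1*, which was so for 0.686% of genes. Against wild-type embryos 3 were called lower, where 1.59% of all genes were called lower and 3.66% higher, and all 8 again had a negative log2 fold change, with a median of -1.11 against -0.02. No member had every null embryo below every wild-type embryo, which was so for 0.149% of genes. Both comparisons use the same null embryos. Within a single stage, where groups are smaller, the share of all genes with every null embryo below another group was not counted. Separations within a stage are therefore given below as descriptions only. The genes were chosen with these values known, so nothing is read from their counts.

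The droplet coat genes are given first, with each gene's identifier and GRCm38 position. *Plin2* (ENSMUSG00000028494; chr4:86648386-86670060, minus strand) at E2.5 was at 1.35, 0.850, 0.305 and 0.235 CPM in the 4 null embryos, from 13, 5, 1 and 1 counts. It was at 52.0 and 29.9 CPM in the 2 het embryos, and the 6 wild-type embryos ran from 2.27 through a median of 19.3 to 43.0. At E2.75 the null embryos were at 22.2, 7.69 and 11.1 CPM, the het embryos at 77.1, 39.5, 39.4, 37.8 and 85.1, and the wild-type embryos at 22.6, 7.80 and 2.23. The null embryos thus lay below both other genotypes at E2.5, and at E2.75 below het embryos only. With the stages merged, the log2 difference from het embryos was -3.09 ± 0.78 (SE; edgeR adjusted p = 0.0208) and from wild-type embryos -1.51 ± 0.71 (adjusted p = 0.307). Without the 2 null libraries under 2000000 counts, both from E2.75, the difference from wild-type embryos was -2.62 and was called (adjusted p = 0.0859), as it was without E2.75 Null replicate 1 alone.

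*Plin3* (ENSMUSG00000024197; chr17:56277476-56292873, minus strand) encodes a perilipin that moves between the cytosol and new droplets. At E2.5 the null embryos were at 165, 138, 212 and 149.7 CPM, the het embryos at 313 and 366, and the wild-type embryos ran from 165 through 271 to 433. At E2.75 the null embryos were at 109, 114 and 138 CPM, the het embryos at 415, 356, 531, 437 and 470.4, and the wild-type embryos at 382, 357 and 110.2. Every null embryo was below every het embryo, and 3 wild-type libraries, E2.5 replicates 1 and 4 and E2.75 replicate 3, lay within the null range. The log2 difference from het embryos was -1.49 ± 0.25 (edgeR adjusted p = 0.000818). From wild-type embryos it was -0.95 ± 0.24 (adjusted p = 0.0188), short of the fold required. Leaving out single embryos moved it past that fold in 3 fits of 16, to -1.02 without E2.5 WT replicate 1, -1.07 without E2.5 Null replicate 3 and -1.06 without E2.75 WT replicate 3.

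The fatty acid binding proteins carry fatty acids through the cytosol. *Fabp3* (ENSMUSG00000028773; chr4:130308595-130315463, plus strand) at E2.5 was at 7.69, 3.74, 3.36 and 6.35 CPM in null embryos, at 10.7 and 12.99 in het embryos, and from 7.41 through 12.2 to 119 in wild-type embryos. At E2.75 it was at 0, 2.56 and 8.58 CPM in null embryos, at 26.4, 166, 27.7, 47.5 and 33.9 in het embryos, and at 2.396, 13.5 and 12.6 in wild-type embryos. Single high embryos, E2.5 WT replicate 1 at 119 CPM and E2.75 Het replicate 2 at 166 CPM, raised the means of their groups. The log2 difference was -3.28 ± 0.79 from het embryos (edgeR adjusted p = 0.0153) and -2.26 ± 0.73 from wild-type embryos (adjusted p = 0.0865). Without that het embryo the former was -2.49 (adjusted p = 0.0611). The latter was no longer called without that wild-type embryo, at -1.18 (adjusted p = 0.365), nor without any 1 of E2.5 WT replicate 4, E2.5 Null replicates 2, 3 and 4 and E2.75 Null replicates 1 and 2, and without both low libraries it was -1.99 (adjusted p = 0.203). A processed pseudogene, *Fabp3-ps1*, matches 402 bases of *Fabp3* at 99.3% identity and had 49 counts over all embryos, and 161 exonic bases overlap *Zcchc17* or *Gm10570* on the other strand, where unstranded reads cannot be told apart.

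*Fabp5* (ENSMUSG00000027533; chr3:10012548-10016607, plus strand) at E2.5 was at 11.2, 8.67, 5.19 and 18.8 CPM in null embryos, at 55.9 and 96.4 in het embryos, and from 16.4 through 34.6 to 45.7 in wild-type embryos. At E2.75 it was at 9.37, 35.9 and 50.1 CPM in null embryos, at 50.4, 95.2, 26.5, 53.8 and 56.3 in het embryos, and at 3.73, 19.9 and 14.6 in wild-type embryos. At E2.5 the null embryos were below both het embryos, and 1 of them was within the wild-type range. At E2.75 their range overlapped those of both other genotypes. The log2 difference from het embryos was -1.64 ± 0.49 (edgeR adjusted p = 0.0578). It was not called without E2.5 Null replicate 1, 2 or 4, or without E2.75 Het replicate 2 (highest edgeR adjusted p = 0.111). From wild-type embryos the difference was -0.39 ± 0.45 (adjusted p = 0.784). The pseudogene *Gm6166*, with 98.3% identity over 409 bases of *Fabp5*, had 881 counts over all embryos.

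*Lpcat1* (ENSMUSG00000021608; chr13:73467197-73516422, plus strand) encodes an acyltransferase that turns lysophosphatidylcholine into phosphatidylcholine, the main phospholipid of membranes and of the droplet surface. At E2.5 it was at 28.2, 9.52, 34.5 and 26.3 CPM in null embryos, at 56.4 and 50.8 in het embryos, and from 12.7 through 49.8 to 87.1 in wild-type embryos. At E2.75 it was at 29.6, 16.4 and 13.8 CPM in null embryos, at 153, 141, 125, 85.7 and 177 in het embryos, and at 90.3, 54.4 and 64.4 in wild-type embryos. At E2.75 the null embryos lay below every wild-type and every het embryo. The log2 difference was -2.32 ± 0.39 from het embryos (edgeR adjusted p = 0.000885) and -1.27 ± 0.37 from wild-type embryos (adjusted p = 0.0471).

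DGAT1 and DGAT2 are unrelated enzymes that each complete the synthesis of triacylglycerol. *Dgat2* (ENSMUSG00000030747; chr7:99153658-99182719, minus strand) at E2.5 was at 33.9, 16.99, 19.8 and 3.996 CPM in null embryos, at 21.4 and 39.2 in het embryos, and from 22.5 through 32.5 to 69.2 in wild-type embryos. At E2.75 it was at 0.986, 3.59 and 16.5 CPM in null embryos, at 32.1, 42.2, 49.9, 44.7 and 76.7 in het embryos, and at 46.9, 47.3 and 16.5 in wild-type embryos. The E2.75 null embryos were below all het embryos and, at 16.47 against 16.52 CPM, narrowly below all wild-type embryos. The 2 lowest, from 2 and 7 counts, are the 2 libraries under 2000000 counts. The log2 difference was -1.65 ± 0.50 from het embryos (edgeR adjusted p = 0.0615) and -1.46 ± 0.48 from wild-type embryos (adjusted p = 0.0885). The former was lost without E2.5 Null replicate 4 or E2.75 Het replicate 5 (adjusted p = 0.117 and 0.133). The latter was lost when any 1 of 11 of the 16 null and wild-type libraries was left out, and also without both low libraries together.

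*Dgat1* (ENSMUSG00000022555; chr15:76502015-76511953, minus strand) was at 0 to 3.74, 4.30 to 5.57 and 0 to 21.1 CPM in null, het and wild-type embryos at E2.5, and at 2.96 to 20.2, 16.3 to 40.5 and 7.19 to 16.9 CPM in the same order at E2.75. Null embryos were below het embryos at E2.5 and overlapped them at E2.75, and they overlapped wild-type embryos at both stages. Its difference from het embryos, -1.89 ± 1.07 on the log2 scale, was no smaller than that of *Dgat2* but had a wider error and did not pass (edgeR adjusted p = 0.376). *Pnpla2* (ENSMUSG00000025509; chr7:141455198-141460743, plus strand) encodes the lipase that takes the first fatty acid from triacylglycerol. It was at 0.513 to 11.96 CPM in null, 0.0830 to 12.6 in het and 0.490 to 14.5 in wild-type embryos, and its log2 differences were -0.71 ± 0.84 and -0.01 ± 0.79 (adjusted p = 0.725 and 0.997). Its null embryos overlapped het and wild-type embryos at both stages. *Cd36* (ENSMUSG00000002944; chr5:17781690-17888801, minus strand), a fatty acid transporter of the plasma membrane, had counts in 3 embryos, 18 in E2.5 Null replicate 2, 5 in E2.75 Null replicate 2 and 2 in E2.75 WT replicate 1. The 0 counts in the 7 het embryos allow up to 0.0463 CPM, at 3 counts over the group and for counting error only. It was not tested in these comparisons.

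**Figure D2:**
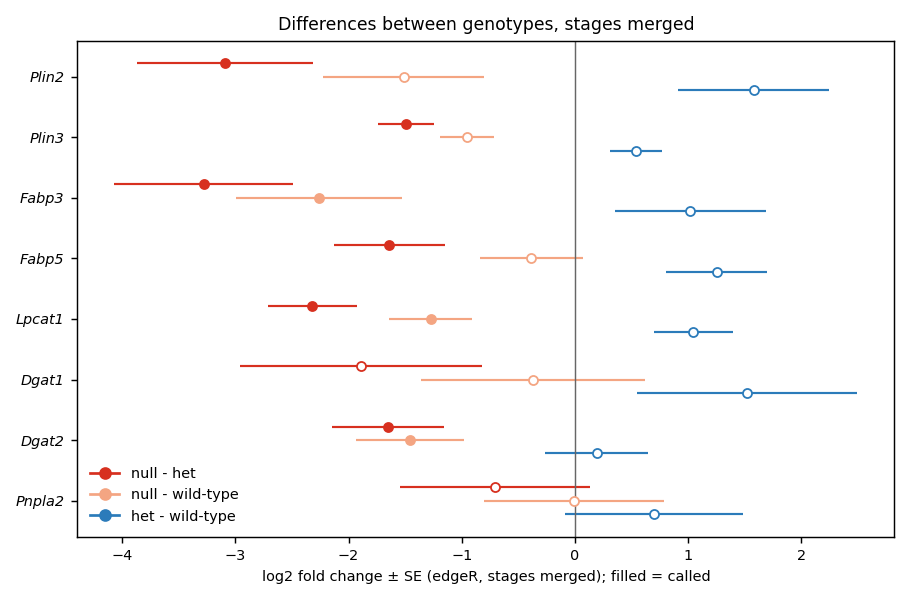
Log2 fold changes with their SE from edgeR for the 8 genes tested with the stages merged; red compares null with het, orange null with wild-type and blue het with wild-type, and filled points were called. The 6 filled red points lie between -3.28 and -1.49, and no blue point is filled.

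Between het and wild-type embryos no difference in these genes passed. All 8 log2 differences were above 0, with a median of 1.03 against -0.03 over all genes, and the largest were 1.58 ± 0.67 for *Plin2*, 1.52 ± 0.97 for *Dgat1*, 1.25 ± 0.45 for *Fabp5* and 1.04 ± 0.35 for *Lpcat1*. By edgeR 0 of the 8 were called and 4 had an unadjusted p under 0.05, and by DESeq2 0 were called. Over all genes edgeR called 0%, with 934 at an unadjusted p under 0.05, and DESeq2 called 37 higher and 28 lower. Among the 8 the smallest edgeR adjusted p was 0.537, for *Lpcat1*. The het and wild-type groups also differ in stage, with 5 of 7 het and 3 of 9 wild-type embryos at E2.75. With stage as a covariate the 6 genes called between null and het embryos were the same 6, from -3.45 for *Fabp3* to -1.51 for *Plin3*. Scaling by the ERCC spike-ins moved the median over all genes by -1.08 between null and het, by -0.37 between null and wild-type and by 0.71 between het and wild-type embryos. It called 289 genes higher and 4487 lower between null and het embryos, in place of 493 and 276, and 317 and 469 between null and wild-type embryos, in place of 491 and 213. Relative to that shift the null to het differences were -2.92 for *Plin2*, -1.60 for *Plin3*, -3.45 for *Fabp3*, -1.34 for *Fabp5*, -2.51 for *Lpcat1* and -1.90 for *Dgat2*. All 6 were called before the shift was taken off, among the 4487 genes called lower there. The differences relative to the shift were not tested. *Fabp5* against wild-type embryos was the only member whose sign changed, at 0.07 relative to the shift.

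The stages were also fitted separately. At E2.5 *Plin2* alone was called between null and wild-type embryos, at -4.80 ± 0.88 on the log2 scale (edgeR adjusted p = 0.0242), where 0.459% of all genes were called lower. *Fabp5*, at -1.61 ± 0.46, and *Fabp3*, at -2.50 ± 0.86, did not pass (adjusted p = 0.116 and 0.185). Against the 2 het embryos of that stage edgeR called 0 of the 8, with 3 at an unadjusted p under 0.05, and 0.0126% of all genes lower. DESeq2 called *Plin2* at -5.77 and *Fabp5* at -2.76 there, and edgeR called the same 2 genes when all 23 embryos were fitted in 6 groups. The share of all genes called by these other fits is not given. *Dgat1*, at -2.46 ± 1.76 against wild-type embryos, had the widest error of the 8 at this stage.

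At E2.75 *Lpcat1*, *Plin3*, *Fabp3* and *Dgat2* were called between null and het embryos, at -2.81 ± 0.37, -1.91 ± 0.34, -3.90 ± 0.98 and -2.74 ± 0.68 (edgeR adjusted p = 0.00254, 0.00977, 0.0461 and 0.0441), where 2.31% of all genes were called lower. Against wild-type embryos *Lpcat1*, *Plin3* and *Dgat2* were called, at -1.86 ± 0.38, -1.27 ± 0.35 and -2.34 ± 0.70 (adjusted p = 0.0241, 0.0788 and 0.0994), where 2.35% were called lower. *Plin2* and *Fabp5* were at 0.32 ± 0.68 and 1.25 ± 0.64 there. Without the 2 low libraries a lone null embryo was left at this stage, taken to vary like the other groups, and only *Lpcat1* was called in each comparison. Fitting all 23 embryos in 6 groups left the 4 calls against het embryos and none against wild-type embryos.

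The difference between stages was tested itself, as the null to wild-type difference at E2.75 less that at E2.5. It was 5.07 ± 1.12 for *Plin2* (edgeR unadjusted p = 0.00012, adjusted p = 0.203) and 2.88 ± 0.81 for *Fabp5* (unadjusted p = 0.00152, adjusted p = 0.292), and for the other 7 the unadjusted p was 0.17 or more. By edgeR 0 of the 9 and 0% of all genes were called, with 2 of the 9 and 2046 of all genes at an unadjusted p under 0.05. DESeq2 called *Plin2* at 5.10 (adjusted p = 0.00132) and *Fabp5* at 2.87 (adjusted p = 0.0236), with 220 genes higher and 124 lower in all. By edgeR without the filter on low counts 2 of the 9 were called as well, so the call depends on the tool and on the filter. Between wild-type embryos of E2.75 and E2.5, 7.38% of all genes were called and 0 of the 9, with 1 at an unadjusted p under 0.05, *Fabp5* at -1.34 ± 0.57 (edgeR adjusted p = 0.178), and DESeq2 called 0.

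**Figure D3:**
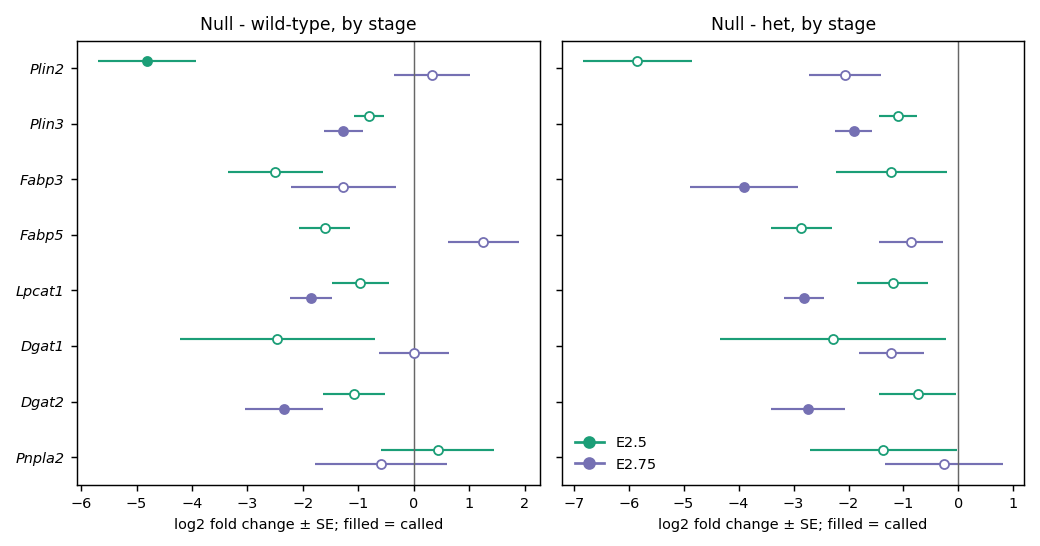
Log2 fold changes with their SE from edgeR, fitted within E2.5 (green) and within E2.75 (purple), for null against wild-type on the left and null against het on the right; filled points were called. *Plin2* moves from -4.80 at E2.5 to 0.32 at E2.75 against wild-type, and *Dgat2* from -1.08 to -2.34.

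The wider pathway was described with 7 lists of other lipid genes, 123 genes of which 96 were tested. Between null and het embryos 7 of the 96 were called lower and 1 higher, where 2.06% and 3.67% of all genes were, with a median log2 difference of -0.34 against 0.02 over all genes. Between null and wild-type embryos 0 were called lower and 1 higher, where 1.59% and 3.66% of all genes were. The gene that was higher in both was *Lipe*, hormone-sensitive lipase, which cuts diacylglycerol. It was at 16.7 to 61.9 CPM in null, 3.62 to 15.1 in het and 4.01 to 21.03 in wild-type embryos. Its log2 difference was 1.97 ± 0.43 from het (edgeR adjusted p = 0.00787) and 2.21 ± 0.40 from wild-type embryos (adjusted p = 0.000993). *Mgll*, monoglyceride lipase, which cuts the last fatty acid, was lower than in het embryos at -2.83 ± 0.91 (adjusted p = 0.0824).

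Of the 14 tested genes for making glycerolipids and sterol esters, *Agpat2*, which adds the second fatty acid to the glycerol backbone, was lower at -1.03 ± 0.33 (edgeR adjusted p = 0.0815). Among 13 for uptake, binding and activation, *Dbi*, the acyl-CoA binding protein, was lower at -1.51 ± 0.43 (adjusted p = 0.0455). Among 19 for fatty acid oxidation, the dehydrogenases *Acadl* and *Hadh* were lower, both at -1.04 (adjusted p = 0.0110 and 0.0961), and the list's median was -0.55. Among 10 regulators *Srebf2*, a transcription factor of sterol synthesis genes, was lower at -3.86 ± 1.12 (adjusted p = 0.0489), with 0.850 to 7.69 CPM in null and 6.02 to 115.8 in het embryos. None of the 12 tested genes of droplet coat and assembly and none of the 20 of phospholipid synthesis and remodelling was called, with medians of -0.35 and -0.18. The lower genes outside the 9 thus came singly or in pairs from 5 lists.

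**Figure D4:**
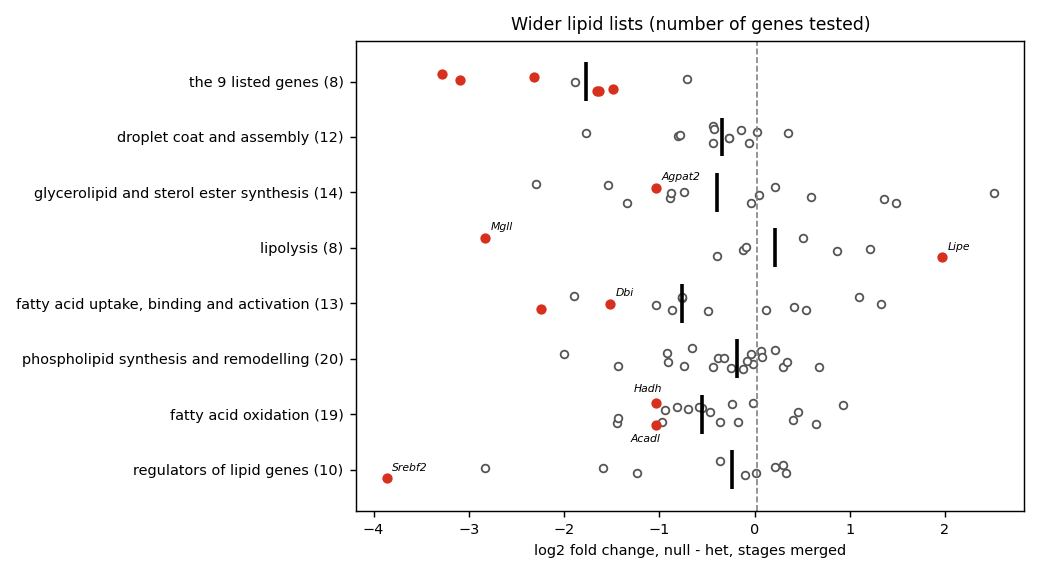
Log2 fold changes between null and het embryos, stages merged, for the 9 genes and 7 wider lists, with the number tested in brackets; red points were called, those described in the text being named, thick bars are list medians and the dashed line is the median of all genes. The median of the 9 genes is -1.77, and those of the 7 lists lie between -0.76 and 0.21.

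Markers of the outer cells of the embryo, the trophectoderm, were summed beside these genes. The 8 markers summed to 424 to 1019 CPM in het, 231 to 503 in null and 215 to 603 in wild-type embryos, with *Elf5* at 0 in wild-type embryos. Between null and het embryos, stages merged, *Gata3*, at -2.12 ± 0.48, and *Krt18*, at -2.95 ± 0.80, were called lower (edgeR adjusted p = 0.00942 and 0.0352). These are 2 of 7 tested, where 2.06% of all genes were called lower. *Cdx2*, at -2.63 ± 0.98, was not called (edgeR adjusted p = 0.141). Of the 7, 6 were negative, and *Tfap2c* was at 0.25 ± 0.26. Between null and wild-type or het and wild-type embryos 0 were called with the stages merged. Within E2.75, 1 was called lower and 1 higher between null and wild-type embryos, where 2.35% of all genes were called lower. With the stages merged, *Gata3* was at 0.11 ± 0.43 between null and wild-type embryos and at 2.23 ± 0.44 between het and wild-type embryos (edgeR adjusted p = 0.959 and 0.148). *Krt18* was at -1.65 ± 0.74 and 1.31 ± 0.70 in the same comparisons (edgeR adjusted p = 0.278 and 0.719). The 6 inner-cell markers summed to 905 to 1686 CPM in null and 995 to 1611 in het embryos, and 0 were called in either comparison. The part of cell type in the lipid genes was not tested.

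Over the 23 embryos, the gene most like *Plin3* was another of the 9, *Dgat2*, with Spearman's rho of 0.85 across CPM, followed by *H2-D1* at 0.78 and *Msh6* at 0.77. Those most like *Lpcat1* were *Desi1*, *Emc10* and *Lamtor1*, at 0.87, 0.86 and 0.84, and those most like *Fabp5* were *Zfp667*, *Tmx1* and *H2afy*, at 0.83, 0.80 and 0.78. These are the highest of 13414 genes for each of the 3 members with the highest mean level on the log2 scale. The embryos share genotype, stage and depth, and the values are descriptions. Among the 8 tested genes rho ran from 0.16, for *Dgat2* and *Pnpla2*, to 0.85, and *Pnpla2* was the least like the rest, at 0.16 to 0.37.

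**Figure D5:**
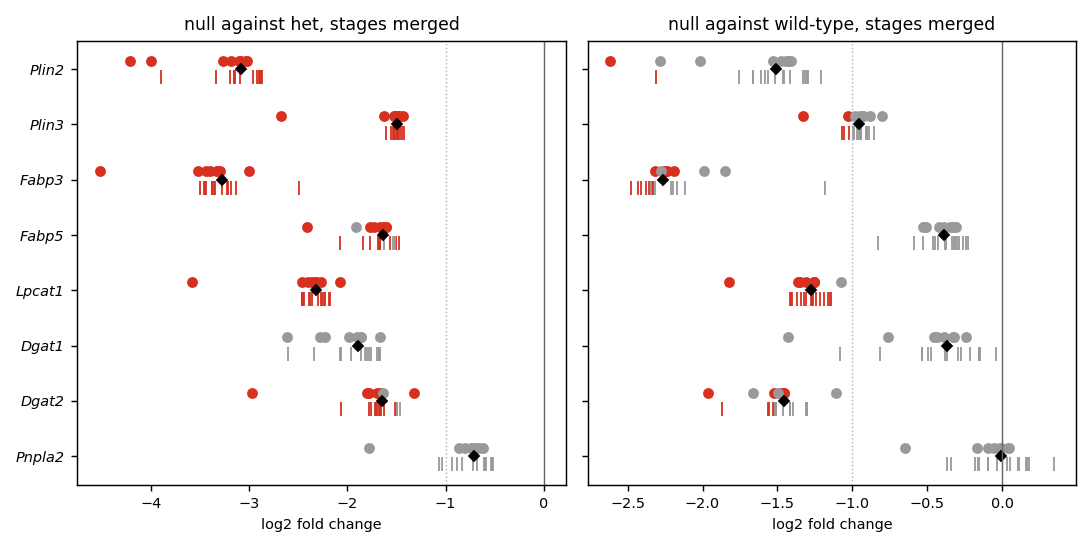
Log2 fold changes of the 8 genes with the stages merged under every setting tried; diamonds are the values reported, circles other methods and ticks fits that leave out 1 embryo, in red where called and grey where not. Against het embryos *Plin2*, *Plin3*, *Fabp3* and *Lpcat1* are red under every setting, and against wild-type embryos no gene is.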

How the data were processed

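Single-embryo libraries (oligo-dT capture, 18 PCR cycles by the study's protocol) were counted by the authors: reads were trimmed with cutadapt 3.4, mapped to GRCm38 with STAR 2.7.8a and deposited as raw counts per gene from HTSeq 0.11.4, without strand. The POU6F1 peak files were deposited by the authors from MACS2 2.2.7.1 after Bowtie2 2.4.4, called per replicate, with fold enrichment, −log10 p, −log10 q and an integer score for each peak, the score being unused. Each replicate has 2 lists. By the study's supplement the first was called against an IgG pulldown from the same cells and the second against mCherry-only cells; the first lists were used.

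Counts were fitted with edgeR 4.0.16 (quasi-likelihood, TMM, filterByExpr) with genotype groups of both stages merged or within a stage, and Benjamini-Hochberg adjustment over all genes tested; SE is the log2 fold change over the square root of F. CPM uses TMM library sizes. The rows that name no gene and the 92 spike-ins stayed out of library sizes; reads outside exons were 20.99% to 43.9% and ambiguous reads 1.89% to 2.73%. The 9 genes and all gene lists were chosen with earlier results of these data known. Named genes are the 9, the genes of each wider list called with the stages merged (at most 6 a list, by size), the 3 genes most like each of the 3 highest members by Spearman's rho, and *Dis3*; 1 list gene that was called is not reported here. Of 167 list genes 166 were found, and the last under its older symbol. The fits were tested on simulated data. Peaks of both replicates sharing at least 1 bp were set against GENCODE vM21 starts. Copies were sought with BLAST at 95% identity over at least 100 bases. Depth limits *Cd36*, *Plin2* in E2.5 null embryos and *Dgat2* in the 2 null libraries under 2000000 counts; removal of these 2 libraries was chosen as an alternative after the data were seen. The other alternatives were DESeq2 1.42.0, RLE and spike-in scaling, no filter, a replicate block, stage as a covariate, other sets of embryos and each embryo left out. Replicate numbers did not pair the embryos: over 17 same-numbered pairs of a stage, deviations correlated at -0.106 to 0.0858.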

Additional observations from a re-analysis of the deposited data

Results flagged for a closer look

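In 5 of 25 groups of 4 to 6 embryos, 1 embryo stood farther from the rest than Dixon's 95% limit allows. For normally distributed values chance gives this in about 1 in 20 groups. CPM values, some of them at 0, need not be so distributed, so the 5 groups are not set against chance. *Fabp3* was at 119.0 CPM in E2.5 WT replicate 1, where the other 5 embryos were at 7.41 to 16.02, and at 166.4 CPM in E2.75 Het replicate 2, where the other 4 were at 26.4 to 47.5. *Dgat1* was at 3.743 CPM in E2.5 Null replicate 1, against 0, 0 and 0.235 in the others. *Pnpla2* was at 11.96 CPM in that same embryo, against 0.916 to 2.35. *Cd36* was at 3.059 CPM, from 18 counts, in E2.5 Null replicate 2, and at 0 in the other 3. The tests without E2.5 WT replicate 1 and without E2.75 Het replicate 2 stand beside *Fabp3* above.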

How the results depend on the processing

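With the stages merged, 6 of the 9 genes were called between null and het embryos by DESeq2, RLE or spike-in scaling, stage as a covariate, the 2 genotypes alone and without the 2 low null libraries; no filter added *Cd36*, called higher against het embryos that are all at 0 counts, and leaving out each embryo gave 4 to 6. A replicate block gave 4, without *Fabp5* and *Dgat2*. Spike-in scaling called far more of all genes lower than the main fit did, as given above. Between null and wild-type embryos, where 3 were called, the replicate block gave 0, the 2 genotypes alone 1, and leaving out each embryo 1 to 4; the count was 1 without E2.5 WT replicate 4, E2.5 Null replicate 2 or 4, or E2.75 Null replicate 2. Between het and wild-type embryos every setting gave 0. For several settings, among them RLE scaling, stage as a covariate and embryos left out, the share of all genes called is not given. The counts of this paragraph are therefore descriptions only. *Pnpla2* against wild-type embryos, never called, changed sign to 0.0474 with stage as a covariate and 0.0422 without the low libraries, and ran from -0.37 to 0.35 with embryos left out.

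At E2.5, against het embryos, DESeq2, no filter and the fit in 6 groups gave 2 in place of 0 and spike-in scaling 4. Against wild-type embryos DESeq2 gave 2 in place of 1. For settings within a stage the share of all genes called is not given, so these counts are descriptions only. Leaving out an embryo of that stage changed neither count. At E2.75, against het embryos, embryos left out gave 2 to 4 in place of 4, the lowest without E2.75 Null replicate 2, and 1 remained without the low libraries. Against wild-type embryos 3 became 1 under the block and without the low libraries, 0 in the fit in 6 groups, and 1 to 2 with embryos left out, the 1 without E2.75 WT replicate 1 or 2 or E2.75 Null replicate 1 or 2. Wild-type stages gave 1, *Lpcat1*, under spike-in scaling in place of 0, and the difference between stages gave 2 by DESeq2 and without a filter in place of 0. In the fit in 6 groups the block was the replicate number, shared across stages. In the merged fits it was the replicate number within each stage. Of peaks, a stricter q gave 0 and both lists 2 of the 9, in place of 7. The causes of these changes were not tested.

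Over all genes, null against het embryos gave 493 higher and 276 lower calls, but 1240 and 544 by DESeq2, 1266 and 542 with no filter, 216 and 116 with the block and 467 and 419 without the low libraries. Null against wild-type embryos gave 491 and 213, but 1186 and 477 by DESeq2 and 2672 and 737 with no filter. Depth limits genes of a few counts, such as *Plin2* in E2.5 null embryos and *Cd36*.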

Other observations

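Of 111 genes of the 7 wider lists tested, 9 were called higher at E2.75 than at E2.5 and 1 lower by edgeR. Of all 18677 genes tested 7.38% were called in either direction, a share near that of the lists with both directions together. By direction, 698 of all genes were called higher and 680 lower with the main scaling. The lists were chosen with earlier results of these data known, so nothing is read from the direction of their calls. The genes below were named after their values were seen, and the stages were compared over 3 and 6 embryos. *Srebf2*, which drives sterol synthesis genes, was at 0 to 2.47 CPM in E2.5 and 15.4 to 70.3 CPM in E2.75 wild-type embryos, a log2 difference of 5.52 ± 0.75 (edgeR adjusted p = 0.000195). *Pcyt1b*, of phosphatidylcholine synthesis, was at 0.871 to 11.5 and 22.6 to 77.5 CPM, and *Lpin1*, which makes diacylglycerol, at 3.48 to 21.8 and 27.2 to 88.4 CPM. *Eci1*, an isomerase of fatty acid oxidation, was the gene that was lower, at 48.2 to 107.01 and 27.7 to 41.9 CPM. Spike-in scaling moved the median of all genes by 0.89 in this comparison and called 3218 genes higher and 59 lower, in place of 698 and 680.

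*Srebf2* in null embryos was at 0.850 to 2.91 CPM at E2.5, where het embryos were at 6.02 to 6.03 and wild-type embryos at 0 to 2.47. At E2.75 null embryos were at 1.97 to 7.69 CPM, het embryos at 36.5 to 115.8 and wild-type embryos at 15.4 to 70.3. The share of all genes with groups so placed was not counted, so these ranges are descriptions only. Of the 3 null embryos at E2.75, 2 are the libraries under 2000000 counts, and the wild-type embryos are those of the stage comparison above. Against wild-type embryos the log2 difference of *Srebf2* was -3.30 ± 0.67 at E2.75 (edgeR adjusted p = 0.0244) and 1.33 ± 1.17 at E2.5 (adjusted p = 0.681). The difference between the stages was -4.55 ± 1.14 and did not pass (edgeR adjusted p = 0.261).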
